A study of Mus musculus with 28 samples.

Results

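Untreated intestinal organoids, which hold epithelium alone, were set against mesenchymal cells isolated from the gut wall and labelled fresh. The aim was to ask which of the 2 cell kinds carries the transcripts of ligands, receptors, antagonists, matrix and junction proteins. The comparison takes 4 of the 28 samples of the series. They are the 3 untreated small-intestinal organoid samples (WT, C57BL/6) that served as controls for Tgfb, and 1 untreated sample of mesenchymal cells from the duodenum of a PdgfraH2BeGFP mouse. A sample of the same kind of mesenchymal cells, immortalised with the HPV16 E6 gene, selected with puromycin and sorted for high eGFP, is quoted beside it. It comes from the same table as the fresh sample. A further 4 untreated organoid samples, the controls of a BMP experiment in a separate table, were used only to ask whether a transcript was seen in other organoids.

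Organoids here are crypts grown in a gel in ENR medium, which supplies EGF, the BMP antagonist Noggin and R-spondin, with no Bmp or Tgfb added. The gut wall had its epithelium detached and was digested with collagenase and dispase, and adherent cells were cultured in MesenCult medium. The labels call the fresh cells Pdgfra positive, and the study's methods record no sort of them and no time in culture. The PdgfraH2BeGFP allele is a nuclear green reporter of Pdgfra. Genotype, gut region, culture medium and cell kind all differ between the 2 groups and cannot be told apart. Neither the number of mice behind the samples nor the sequencing run of each sample is given.

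In the gut, a sheet of epithelial cells joined by tight junctions, adherens junctions and desmosomes sits on a basement membrane, with mesenchyme below it. Mesenchymal cells around the crypt are known as a source of Wnt proteins, of R-spondins and of BMP antagonists, which sustain stem cells. The epithelium is known to send Hedgehog proteins and PDGFA the other way. BMP, Tgfb, Wnt, EGF, FGF, Notch and ephrin signals each need a ligand, a matching receptor and, often, a secreted antagonist, so the side on which each transcript lies sets out which way a signal could pass.

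Values are in TPM, transcript abundances scaled by length and to a sum of 1000000 in each sample, so levels of different genes can be compared. The organoid and mesenchymal tables were made separately, and the mesenchymal group has 1 sample. No test was therefore possible, and a side was assigned by size alone. A gene was placed on the mesenchymal side where log2(TPM + 1) of the fresh sample exceeded that of each of the 3 organoid samples by at least 2, a 4-fold difference on the TPM + 1 scale. The epithelial side was the reverse. Genes had to reach 1 TPM in the fresh sample or as the organoid mean, so a gene at 0 in one cell kind passed only through the other. Organoid values are given in the order of samples 1, 2 and 3. In each family the genes named were mostly those with the largest differences on a side. What such genes share, as in being near 0 in the other cell kind, follows in part from that choice. It is not a result for the family. TPM keep no read depth, so depth is unknown for these 4 samples and a value of 0 means only that the gene is listed at 0. In bulk RNA, fewer cells of a type and less RNA per cell cannot be told apart.

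The epithelial markers and most fibroblast markers matched the labels. All 14 epithelial markers lay on the epithelial side. Their summed level was 10495 to 11607 TPM in the organoids and 35.4 TPM in the fresh sample, where Vil1, Cdx2, Lgr5, Olfm4, Fabp1 and Alpi were listed at 0. Among fibroblast markers, 10 of 12 lay on the mesenchymal side, with a sum of 17660 TPM against 5.01 to 8.06 TPM in the organoids. Dpt and Pi16, at 0.0725 and 0.0285 TPM in the fresh sample, were the other 2. Pdgfra itself was at 37.5 TPM in the fresh sample. Smooth muscle and pericyte markers summed to 11615 TPM in the fresh sample, with Acta2 at 5112 and Tagln at 3011 TPM, and to 0.857 to 1.11 TPM in the organoids. Of these 10 markers, 8 lay on the mesenchymal side. Rgs5 and Cspg4, at 1.59 and 2.94 TPM in the fresh sample, lay on neither. Smaller marker sums of other cell types were present. Haematopoietic markers summed to 130.4 TPM, of which Lyz2 made 111, while Cd3e, Cd79a and Ms4a1 were at 0. Endothelial markers summed to 24.3 TPM. Glial and neuronal markers summed to 65.2 TPM, of which Tubb3 made 33.2 and Uchl1 17.7 TPM. The 4 mesothelial markers other than Krt19 summed to 128.9 TPM. The 3 interstitial cell of Cajal markers summed to 4.98 TPM in the fresh sample and to 13.2 to 18.6 TPM in the organoids. Of them, Kit lay on the epithelial side and Ano1 and Etv1 on neither. The part of these cells in the results below was not tested.

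Of 55416 genes in the tables, 15395 passed the filter. The mesenchymal side held 2095 of them (13.6%), the epithelial side 1176 (7.64%) and neither side 12124. The median difference over the genes that passed was 0.25 on the log2(TPM + 1) scale, as the fresh sample minus the organoid mean. The organoid samples correlated with each other at Pearson's r of 0.969 to 0.971 and with the fresh sample at 0.554 to 0.558, across these 15395 genes, which are not independent replicates. The fresh sample and the immortalised one correlated at 0.921. Quantile normalization moved the median of all genes by -0.28 and leaving out mitochondrially encoded and ribosomal protein genes moved it by -0.13. Under neither did any member pass from one side to the other.

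Against that background, 524 genes of 5 classes were looked up, of which 392 passed the filter. The mesenchymal side held 208 of the 392, the epithelial side 57 and neither side 127. By class the counts ran as follows. Of 123 matrix genes above the filter, 106 were on the mesenchymal side and 4 on the epithelial side. For 68 ligands the counts were 31 and 9, for 74 receptors 28 and 7, and for 33 antagonists 17 and 3. For 94 adhesion and junction genes the order was turned, with 26 on the mesenchymal side and 34 on the epithelial side. The median difference was 5.61 for matrix genes, 2.12 for antagonists, 1.91 for ligands, 1.48 for receptors and -0.15 for adhesion genes. These medians stand beside 0.25 over all genes. Below the filter were 132 of the 524: 46 ligands, 15 receptors, 14 antagonists, 25 matrix genes and 32 adhesion genes.

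**Figure D1:**
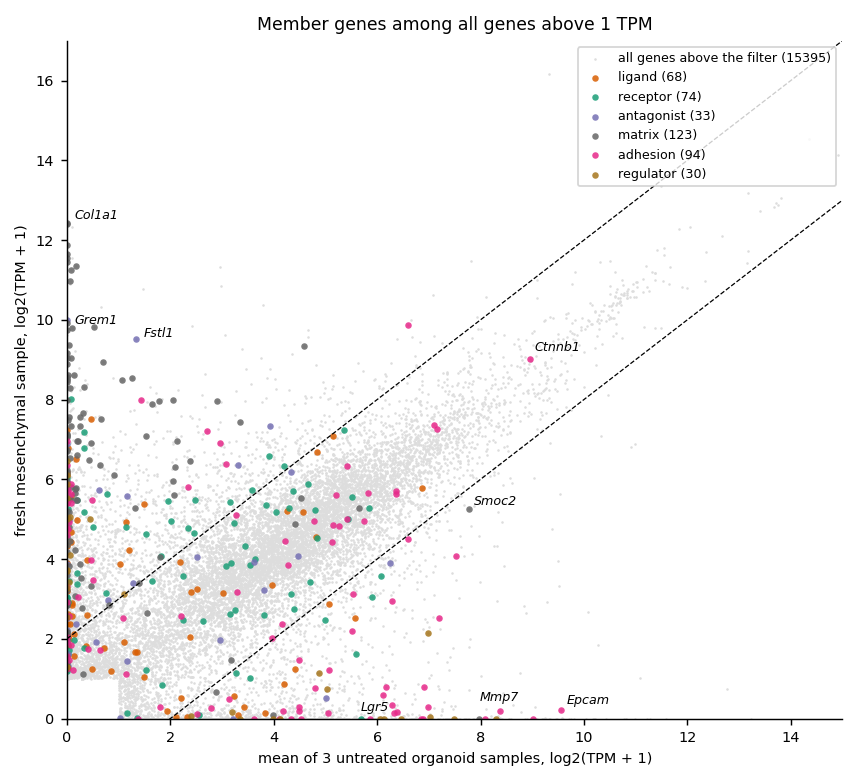
Each point is a gene above the filter of 1 TPM, with the mean of the 3 untreated organoid samples on the x axis and the fresh mesenchymal sample on the y axis, both as log2(TPM + 1); coloured points are the member genes, by class, and the dashed lines mark a 4-fold difference. Matrix genes crowd the left edge, where organoid levels are near 0, and adhesion genes lie along both edges as well as near the diagonal.

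By the rule, a gene on a side cannot overlap between the cell kinds, and many were near 0 in the other kind, members or not. Of the 208 member genes of the mesenchymal side, 164 (78.8%) were under 1 TPM in all 3 organoid samples, beside 64.6% of all 2095 genes of that side. Of the 57 members of the epithelial side, 39 (68.4%) were under 1 TPM in the fresh sample, beside 70.3% of all 1176. Listed at 0 in the other kind were 61 members of the mesenchymal side (29.3%), beside 21% of all genes of that side. On the epithelial side 12 members (21.1%) were listed at 0, beside 33.9% of all genes of that side. A place on neither side does not mean equal levels. Of the 127 members there, 82 reached 1 TPM in both cell kinds and 45 were under 1 TPM in one of them. The organoid samples lay close together for the epithelial genes. The highest of the 3 values was a median 1.15 times the lowest over the 57, and the ratio passed 1.5 for 4 of them: Itgb6, Cldn23, Areg and Patj. Cldn23 and Patj are named only for this spread, after their values were seen. Some members lay close to the limit. On the mesenchymal side, Mmp3 and Wnt11 were just inside, with smallest gaps to an organoid sample of 2.02 and 2.03 on the log2 scale, and Lgr6 and Fras1 just outside, both at 1.98. On the epithelial side, Nectin3 (2.01) and Kitl (2.06) were just inside, and Fgfr3 (1.91) and Pard6b (1.89) just outside.

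**Figure D2:**
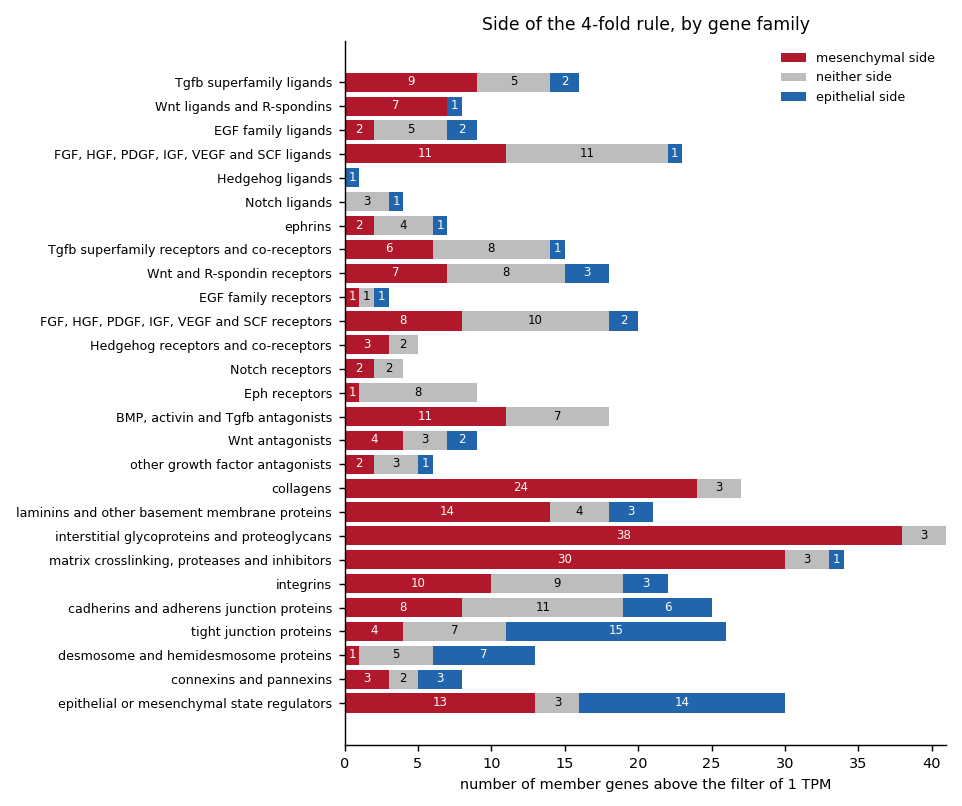
Number of genes above the filter of 1 TPM in each family (x axis), split into the mesenchymal side (red), neither side (grey) and the epithelial side (blue) of the 4-fold rule. The 38, 30 and 24 red genes of the interstitial, crosslinking and collagen families contrast with the 15 blue genes of the tight junction family.

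Ligands of the Tgfb superfamily were mostly mesenchymal transcripts. Of 33 listed, 16 passed the filter, with 9 on the mesenchymal side and 2 on the epithelial side. Bmp4, a BMP that limits stem cell renewal in the gut, was at 0 in each of the organoid samples and at 151 TPM in the fresh sample, a difference of 7.24 on the log2(TPM + 1) scale. Tgfb3 was at 0, 0.0144 and 0.0154 TPM in the organoids and 109.9 TPM in the fresh sample. Inhba, whose product forms activin A, was at 0, 0.0147 and 0 TPM and 50.00 TPM, and Gdf6 was at 0 in each of the organoids and at 29.9 TPM in the fresh sample. All 4 of these ligands were near 0 in every organoid sample. Tgfb1 differed in that the organoids were not at 0. It was at 3.21, 0.9398 and 1.33 TPM in them and at 40.3 TPM in the fresh sample, a difference of 3.95. The organoids themselves carried Bmp3 and Bmp7. Bmp3, a divergent member of the family known to oppose other BMPs, was at 13.4, 13.3 and 13.1 TPM in the organoids and 0.103 TPM in the fresh sample (-3.69). Bmp7 was at 8.49, 10.98 and 9.77 TPM against 0.219 TPM (-3.13). Bmp2 lay on neither side. It was at 1.78, 1.83 and 1.86 TPM in the organoids and 1.05 TPM in the fresh sample, and Bmp5 was at 0 in each of the organoids and at 0.718 TPM in the fresh sample, below the filter. The 5 ligands that the study gave to organoids as recombinant proteins in its BMP arm, BMP2, BMP3, BMP4, BMP5 and BMP7, thus split over both cell kinds, with 1 on the mesenchymal side, 2 on the epithelial side and 2 at under 2 TPM in every sample of both. With a pseudocount of 5, Bmp3 and Bmp7 were on neither side and 6 ligands of the family remained on the mesenchymal one.

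Wnt ligands and R-spondins were nearly all on the mesenchymal side. Of 23 listed, 8 passed the filter: 7 lay on the mesenchymal side and 1 on the epithelial side. Wnt5a, which signals through Ror2 and Ryk without beta-catenin, was at 0.0339, 0.0703 and 0.0751 TPM in the organoids and 46.6 TPM in the fresh sample. Rspo3, an R-spondin that raises Wnt signalling through Lgr receptors, was at 0, 0 and 0.0771 TPM and 44.7 TPM, and Rspo1 was at 0 in each of the organoids and at 13.8 TPM in the fresh sample. Wnt2b, a canonical Wnt, was at 0 in each of the organoids and at 6.65 TPM in the fresh sample. All 4 were under 1 TPM in every organoid sample. Rspo2 was below the filter, at 0.301 TPM in the fresh sample and at 0 in each of the organoids. Wnt3, a Wnt made by Paneth cells, was the gene of the epithelial side. It was at 3.65, 4.53 and 3.87 TPM in the organoids and 0.0189 TPM in the fresh sample (-2.30). Most of these levels were low, and the sides rest on the limits. Wnt4 and Wnt11 were on neither side after quantile normalization. With a filter of 5 TPM, Wnt3, Wnt4, Wnt9a and Wnt11 were lost, which left 4 genes on the mesenchymal side and none on the epithelial side. A pseudocount of 5 left 2 and none, and 10-fold left 3 and none.

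EGF family ligands were divided, with 2 on each side among 9 above the filter. Areg (amphiregulin) was at 12.9, 17.7 and 21.3 TPM in the organoids and 0.831 TPM in the fresh sample, and Tgfa at 7.82, 8.26 and 9.13 TPM and 0.475 TPM. Ereg (epiregulin) had the opposite order, at 0.764, 1.400 and 1.46 TPM in the organoids and 29.7 TPM in the fresh sample. Nrg1 (neuregulin 1), which binds Erbb3 and Erbb4, was at 0, 0 and 0.00864 TPM in the organoids and 8.15 TPM in the fresh sample. Of these 4 genes, Ereg alone kept its side with a pseudocount of 5 or with 10-fold, while Areg, Tgfa and Nrg1 were then on neither. Btc and Hbegf were on neither side: Btc was at 6.000, 7.43 and 7.95 TPM and 7.82 TPM, with the fresh value inside the organoid range. Egf was at 0.379, 0.317 and 0.494 TPM in the organoids and 1.36 TPM in the fresh sample.

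Of the 31 listed ligands of the FGF, HGF, PDGF, IGF, VEGF and SCF families, 23 passed the filter, with 11 on the mesenchymal side and 1 on the epithelial side. Fgf10, which acts on epithelial Fgfr2, was at 0 in each of the organoids and at 66.98 TPM in the fresh sample. Igf1 was at 0.00566, 0 and 0 TPM in the organoids and 72.3 TPM in the fresh sample, and Fgf2 at 0.00672, 0 and 0.397 TPM and 90.7 TPM. Csf1, the macrophage growth factor, was the ligand with the highest level in the fresh sample. It was at 0.384, 0.2304 and 0.5099 TPM in the organoids and 181 TPM in the fresh sample. All 4 were under 1 TPM in every organoid sample. Kitl, the ligand of Kit, was the gene of the epithelial side, at 29.8, 33.5 and 35.02 TPM in the organoids and 6.38 TPM in the fresh sample (-2.19). With a pseudocount of 5 or with 10-fold, Kitl was on neither side and 7 of the 11 mesenchymal genes remained. Pdgfa was the highest ligand in the organoids. It was at 126, 114 and 107 TPM there and 53.6 TPM in the fresh sample, lower than all 3 by less than 4-fold (-1.09). Vegfa was likewise present in both, at 35.9, 26.4 and 40.98 TPM and 134 TPM (1.95).

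Among ligands of Hedgehog and of cell contact, the Hedgehog ligand Ihh and 1 of 4 Notch ligands above the filter were on the epithelial side, and ephrins lay on both sides. Ihh (Indian hedgehog) was at 7.69, 8.06 and 10.8 TPM in the organoids and 0.0723 TPM in the fresh sample (-3.19), and Shh and Dhh were below the filter. Dll1, a Notch ligand of secretory cells, was at 20.7, 20.5 and 19.3 TPM in the organoids and 1.38 TPM in the fresh sample (-3.15). Both were on neither side with a pseudocount of 5 or with 10-fold. Dll4 was at 3.36, 3.69 and 3.83 TPM and 0.428 TPM, and Jag1 had the opposite order at 3.03, 3.37 and 4.19 TPM and 14.1 TPM, both on neither side. Among 7 ephrins above the filter, Efna1 was on the epithelial side and Efna2 and Efna5 on the mesenchymal side. Efna1 was at 41.9, 39.95 and 56.9 TPM in the organoids and 4.74 TPM in the fresh sample, while Efna5 was at 0 in each of the organoids and at 41.1 TPM in the fresh sample. Efnb1 and Efnb2, which bind the Ephb receptors that sort cells along the crypt, were on neither side. Efnb1 was at 26.7, 25.9 and 28.9 TPM in the organoids and 22.4 TPM in the fresh sample.

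Antagonists of BMP, activin and Tgfb had no member on the epithelial side. Of 18 above the filter, among 23 listed, 11 lay on the mesenchymal side and 7 on neither. A pseudocount of 5 or 10-fold left 6 on the mesenchymal side, and a filter of 5 TPM left 7. Grem1 (gremlin 1), a secreted BMP antagonist of the cells under the crypt, was at 0 in each of the organoids and at 1016 TPM in the fresh sample (9.99). It made 39.3% of the summed level of all 47 antagonists in the fresh sample. Fstl1 followed, at 1.404, 2.05 and 1.103 TPM in the organoids and 736 TPM in the fresh sample. Bmper was at 0 in each of the organoids and at 59.7 TPM in the fresh sample, and Fstl3, which binds activin, at 0.637, 0.557 and 0.397 TPM and 51.8 TPM. Grem1 and Bmper were thus listed at 0 in the organoids, while Fstl1 was above 1 TPM in each organoid sample. Grem1, at 1016 TPM, also exceeded Bmp4, at 151 TPM, in the same sample. Of the 7 on neither side, 3 reached 1 TPM in both cell kinds, Twsg1 and Tsku among them. Twsg1 was at 16.8, 18.7 and 22.2 TPM in the organoids and 71.8 TPM in the fresh sample. The other 4, named after their values were seen, were low and unequal. Chrdl2 was at 0 in each of the organoids and at 2.88 TPM in the fresh sample, Chrd at 0, 0 and 0.04795 TPM and 2.06 TPM, and Bambi at 0.5503, 0.441 and 0.461 TPM and 2.802 TPM. Fstl4 had the opposite order, at 0.6800, 1.06 and 1.405 TPM in the organoids and 0.0129 TPM in the fresh sample.

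Wnt antagonists lay on both sides, 4 of 9 above the filter on the mesenchymal one and 2 on the epithelial one. Dkk3, a secreted Dickkopf protein, was at 0.0124, 0 and 0 TPM in the organoids and 117 TPM in the fresh sample. Frzb, a secreted decoy receptor for Wnts, was at 0.0133, 0.0156 and 0.0167 TPM and 46.7 TPM. Dkk2, which binds Lrp5 and Lrp6, was at 0 in each of the organoids and at 33.3 TPM in the fresh sample. Sfrp1 was at 0.05600, 0.0219 and 0.0117 TPM and 30.4 TPM. These 4 were all under 1 TPM in each organoid sample. The epithelial side held Rnf43, a membrane ubiquitin ligase that removes Frizzled receptors, and Sfrp5, which is secreted like Sfrp1. Rnf43 was at 30.98, 34.2 and 28.6 TPM in the organoids and 0.431 TPM in the fresh sample (-4.49). Sfrp5 was at 9.61, 8.58 and 6.48 TPM in the organoids and was listed at 0 in the fresh sample. Znrf3, the relative of Rnf43, was in both, at 6.25, 7.04 and 7.13 TPM and 2.89 TPM. Among intracellular and membrane inhibitors of growth factor receptors, Lrig1 was on the epithelial side, at 72.1, 76.5 and 75.5 TPM and 13.9 TPM, and Spry2 on the mesenchymal side, at 8.98, 8.74 and 9.03 TPM and 81.3 TPM.

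Among receptors, 39 of the 74 above the filter lay on neither side (52.7%), beside 28 of 68 ligands (41.2%) and 78.8% of all genes. Of the 39, 29 reached 1 TPM in both cell kinds. In the Tgfb superfamily, 8 of 15 receptors and co-receptors were on neither side, 5 of them at 1 TPM or more in both. The mesenchymal side held 6, of which a pseudocount of 5 left 2 and 10-fold left 3. Bmpr1a, a type I BMP receptor, was at 43.6, 43.6 and 46.9 TPM in the organoids and 46.2 TPM in the fresh sample, inside the organoid range. Tgfbr1 was at 14.5, 16.3 and 15.6 TPM and 35.5 TPM (1.15). Tgfbr2, the type II receptor that binds Tgfb first, was on the mesenchymal side at 16.4, 17.6 and 17.99 TPM and 79.1 TPM, a difference of 2.13. That is close to the limit, and Tgfbr2 was on neither side after quantile normalization or with mitochondrially encoded and ribosomal protein genes left out. The co-receptor Eng (endoglin) was at 0 in each of the organoids and at 64.6 TPM in the fresh sample, and Acvrl1, its partner, was at 0.0473, 0.671 and 0.0297 TPM and 35.3 TPM. Both are also known from endothelium, whose marker Cdh5 was at 4.81 TPM in the fresh sample, and the part of such cells was not tested. Rgmb, a BMP co-receptor, was the receptor with the highest level in the organoids. It was at 67.3, 66.8 and 65.7 TPM there and 11.01 TPM in the fresh sample (-2.49).

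Wnt receptors lay on both sides, 7 of 18 on the mesenchymal one and 3 on the epithelial one, of which 10-fold left 1 on each. Lgr5, the R-spondin receptor that marks crypt stem cells, was at 44.7, 45.2 and 62.1 TPM in the organoids and was listed at 0 in the fresh sample. Lgr4 was at 55.7, 61.96 and 57.6 TPM and 7.298 TPM, and Fzd5, the main Frizzled of the intestinal epithelium, at 29.9, 30.96 and 31.6 TPM and 4.55 TPM. Of these 3, Lgr5 alone was listed at 0 in the fresh sample. Fzd1, Fzd2 and Fzd4 lay the other way: Fzd1 was at 0.984, 1.51 and 1.09 TPM in the organoids and 27.1 TPM in the fresh sample, with differences of 3.69, 2.95 and 3.08 for the 3 genes. Fzd7 was high in both and higher in the fresh sample, at 13.2, 13.9 and 14.9 TPM and 95.6 TPM. Lrp6, the co-receptor of canonical Wnt signals, was in both at 24.00, 28.4 and 28.5 TPM and 36.8 TPM.

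Receptor tyrosine kinases also lay on both sides. On the epithelial one, Erbb3 was at 44.6, 48.5 and 48.2 TPM in the organoids and 2.06 TPM in the fresh sample (-3.98). Kit was at 9.11, 9.13 and 13.6 TPM and 1.03 TPM, and Fgfr4, the receptor of Fgf15, at 4.38, 5.88 and 4.36 TPM and 0.0695 TPM. Erbb3 and Kit were above 1 TPM in the fresh sample and Fgfr4 was below it. Kit and Fgfr4 were on neither side with a pseudocount of 5 or with 10-fold. On the mesenchymal side, Axl was at 0.123, 0.0248 and 0.0132 TPM and 257 TPM. Pdgfrb was at 0.261, 0.254 and 0.244 TPM and 144 TPM, and Fgfr1 at 0.328, 0.184 and 0.268 TPM and 109.8 TPM. Pdgfra, the gene of the reporter, was at 0.0183, 0.0144 and 0.00768 TPM in the organoids and 37.5 TPM in the fresh sample. Egfr was present in both and on the mesenchymal side, at 11.2, 10.6 and 10.97 TPM and 51.9 TPM (2.15), but on neither side under the same 2 settings as Tgfbr2. Fgfr2 was on neither side, at 20.9, 28.6 and 23.6 TPM and 58.02 TPM. Erbb2, the partner of Erbb3, was at 23.8, 25.05 and 25.9 TPM and 9.65 TPM, also on neither side.

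The Hedgehog receptor was present in both cell kinds. Ptch1, the receptor and a known target of the pathway, was at 8.64, 11.5 and 9.67 TPM in the organoids and 19.1 TPM in the fresh sample (0.89). Smo, the signal transducer, was at 13.1, 13.7 and 13.5 TPM and 40.1 TPM (1.51). Both were higher in the fresh sample than in each organoid sample, by less than 4-fold. The co-receptors Gas1, Boc and Cdon were on the mesenchymal side. Gas1 was at 0.1703, 0.117 and 0.161 TPM and 43.4 TPM, and Boc at 0.531, 0.883 and 0.748 TPM and 48.2 TPM. Cdon lost this side with a pseudocount of 5, with 10-fold and after quantile normalization. It also lost it with mitochondrially encoded and ribosomal protein genes left out. With the immortalised sample, Gas1 and Cdon both lost it. Of the Notch receptors, Notch1 was in both at 8.91, 8.56 and 8.24 TPM and 5.65 TPM, and Notch3 was on the mesenchymal side at 0.134, 0.146 and 0.162 TPM and 9.44 TPM. A pseudocount of 5 or 10-fold left none of the 2 Notch receptors of that side, Notch2 and Notch3. Notch3 also lost it with the immortalised sample. Of 9 Eph receptors, 8 were on neither side, 88.9% beside 78.8% of all genes, and 6 of the 8 reached 1 TPM in both cell kinds. Ephb2 was at 53.6, 58.2 and 56.4 TPM in the organoids and 37.6 TPM in the fresh sample. Epha3 and Ephb6, named after their values were seen, were the other 2, at 0.0142, 0 and 0.0862 TPM and 0.01095, 0 and 0.0138 TPM in the organoids and at 2.31 and 2.08 TPM in the fresh sample.

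Ligands were then read together with receptors in 64 textbook pairs, of which 63 were analysed. In 29 pairs the ligand was on the mesenchymal side. Its receptor was on the epithelial side in 6 of them, in both cell kinds in 9, on the mesenchymal side in 10, and in none of these places in 4. Of those 4 receptors, 2 were below the filter and 2 were on neither side and under 1 TPM in 1 cell kind. Acvr2b, paired with Gdf11, was such a receptor, at 2.59 TPM as the organoid mean and 0.804 TPM in the fresh sample. The 6 pairs from mesenchyme to epithelium were Rspo1 and Rspo3 with Lgr4 and Lgr5, Wnt2b with Fzd5, and Nrg1 with Erbb3. The 9 with a shared receptor include Bmp4 with Bmpr1a, Wnt5a with Ror2 and Ryk, Inhba with Acvr2a and Acvr1b, Fgf10 and Fgf7 with Fgfr2, Wnt4 with Fzd6, and Hgf with Met. The 10 within mesenchyme include Tgfb1, Tgfb2 and Tgfb3 with Tgfbr2, Fgf2 with Fgfr1, Pdgfc with Pdgfra, and Igf1 with Igf1r. In 8 pairs the ligand was on the epithelial side. Its receptor was on the mesenchymal side in 4 (Wnt3 with Fzd7, Bmp7 with Acvr1, and Tgfa and Areg with Egfr), shared in 3 (Ihh with Ptch1, Dll1 with Notch1, Efna1 with Epha2) and epithelial in 1 (Kitl with Kit). In 13 pairs the ligand was in both, among them Pdgfa with Pdgfra, Gas6 with Axl and Jag1 with Notch3, and 8 of these 13 had a mesenchymal receptor. In the last 13 the ligand was below the filter (6 pairs) or on neither side and under 1 TPM in 1 cell kind (7 pairs). The ligands of those 7 were not absent from the other kind. Dll4, for instance, was at 3.62 TPM as the organoid mean and 0.428 TPM in the fresh sample. With Tgfbr2 and Egfr on neither side, as above, their pairs would count as shared. Wnt3, Bmp7, Tgfa and Areg were on neither side with a pseudocount of 5 or with 10-fold, so none of their 4 pairs remained. Of the 6 pairs from mesenchyme to epithelium, Rspo3 with Lgr5 remained under both settings. Rspo3 with Lgr4 remained with a pseudocount of 5 only, and Rspo1 with Lgr5 with 10-fold only. A pair states where the transcripts lay and not that a signal passed.

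Matrix genes had the highest median difference of the 5 classes. Their summed level was 48003 TPM in the fresh sample, 4.80% of all transcripts, and 676 ± 35.5 TPM in the organoids (SD, n = 3), 0.0676% of all. Collagens accounted for 18958 TPM in the fresh sample and for 2.86 ± 0.575 TPM in the organoids (SD, n = 3). Of 27 collagen genes above the filter, among 44 listed, 24 were on the mesenchymal side and none on the epithelial side. Of the 24, 11 (45.8%) were listed at 0 in all 3 organoid samples, beside 21% of all genes of that side. Col1a1, a chain of the main fibrillar collagen, was at 0, 0 and 0.00851 TPM in the organoids and 5543 TPM in the fresh sample (12.43). Col3a1 was at 0 in each of the organoids and at 3733 TPM in the fresh sample, and Col1a2 at 0 in each and 2816 TPM. Col4a1, a chain of the network collagen of basement membranes, showed the same side, at 0.127, 0.08702 and 0.175 TPM in the organoids and 2618 TPM in the fresh sample (11.18). These 4 were named because they had the largest differences of the family. All 4 fresh values passed 1000 TPM and no organoid value reached 1 TPM.

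Of 41 interstitial glycoproteins and proteoglycans above the filter, 38 were on the mesenchymal side and none on the epithelial side. Sparc was at 0.0206, 0 and 0 TPM in the organoids and 5385 TPM in the fresh sample. Decorin (Dcn) and biglycan (Bgn), small proteoglycans that bind collagen, were at 0 in every organoid sample and at 3201 and 3016 TPM in the fresh sample. Fibronectin (Fn1) was at 0.0837, 0.07900 and 0 TPM and 2439 TPM. Prelp was the member most evenly held, at 21.6, 21.96 and 17.5 TPM in the organoids and 28.4 TPM in the fresh sample. Crosslinking enzymes, proteases and their inhibitors had 30 of 34 on the mesenchymal side. Serpinh1, the collagen chaperone, was at 0.112, 0.0241 and 0 TPM and 1994 TPM, and the crosslinking enzymes Lox and Loxl2 at 361 and 524 TPM in the fresh sample, with no organoid value above 0.0987 TPM. The exception was Mmp7 (matrilysin), the Paneth cell protease that activates defensins. It was at 222, 268 and 263 TPM in the organoids and was listed at 0 in the fresh sample, and it made 37.1% of the summed matrix level of the organoids.

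Basement membrane genes were the matrix family with the most epithelial members, with 14 of 21 on the mesenchymal side and 3 on the epithelial side. Nidogen 1 (Nid1) was at 0.0725, 0.0929 and 0.116 TPM in the organoids and 389 TPM in the fresh sample, and the laminin chain Lamb1 at 0.217, 0.254 and 0.236 TPM and 202 TPM. Perlecan (Hspg2) was at 6.401, 7.45 and 5.52 TPM and 250.3 TPM (5.08), so the organoids held some of it. The epithelial side held Lamb3, a laminin chain of epithelial basement membranes, and Smoc2 among others. Lamb3 was at 14.9, 15.9 and 13.4 TPM in the organoids and 0.0579 TPM in the fresh sample, lower than in each organoid sample. Smoc2, a gene of crypt stem cells, was at 217, 233 and 207 TPM and 37.4 TPM (-2.52). Fbln1 and Agrn were on neither side, with Agrn at 23.2, 20.5 and 22.1 TPM in the organoids and 45.1 TPM in the fresh sample.

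Integrins, the receptors for this matrix, had 10 of 22 genes above the filter on the mesenchymal side and 3 on the epithelial side, of which a pseudocount of 5 left 9 and 1. Itga5, the fibronectin receptor chain, was at 2.46, 1.39 and 1.21 TPM in the organoids and 253 TPM in the fresh sample. Itga11, a collagen receptor chain, was at 0 in each of the organoids and at 80.4 TPM in the fresh sample, and Itgb3 at 0 in each and 41.2 TPM. On the epithelial side were Itga6 and Itgb4, the laminin receptor of hemidesmosomes. Itga6 was at 178, 193 and 183 TPM in the organoids and 15.7 TPM in the fresh sample, and Itgb4 at 21.3, 21.7 and 21.3 TPM and 1.76 TPM. The 3 organoid values of both genes lay close together. Itgb6 was also epithelial, and its organoid samples did not agree. It was at 4.72, 24.3 and 4.88 TPM, with the second sample about 5.14 times the lowest, and listed at 0 in the fresh sample. Itga3, another laminin receptor chain, was in both at 24.03, 24.7 and 30.7 TPM and 29.8 TPM.

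Of 25 cadherin and adherens junction genes above the filter, 8 lay on the mesenchymal side and 6 on the epithelial side. Cdh1 (E-cadherin) was at 262, 283 and 267 TPM in the organoids and was listed at 0 in the fresh sample. Cdh17, an intestinal cadherin, was at 314, 328 and 346 TPM and 0.1497 TPM, and Epcam, an epithelial adhesion protein, at 731, 785 and 753 TPM and 0.161 TPM (-9.35). The fresh sample held other adhesion genes. Vcam1 was at 0 in each of the organoids and at 123 TPM in the fresh sample, Cdh11 at 0.05704, 0.0738 and 0.0395 TPM and 58.01 TPM, and Cdh3 at 0.0372, 0.0656 and 0.0702 TPM and 41.1 TPM. The first 3 were under 1 TPM in the fresh sample, and the last 3 under 1 TPM in every organoid sample. A pseudocount of 5 left 5 of the 8 mesenchymal genes. The catenins Ctnnb1 and Ctnna1, which link cadherins to actin, had much the same level in both. Ctnnb1 was at 471, 506 and 501 TPM in the organoids and 521 TPM in the fresh sample (0.08), and Ctnna1 at 138, 145 and 141 TPM and 153 TPM (0.11).

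Tight junction genes had the most epithelial members of any family in the 5 classes, 15 of the 26 above the filter, with 4 on the mesenchymal side. A pseudocount of 5 or 10-fold left 12 and 1. Their summed level was 1589 ± 74.2 TPM in the organoids (SD, n = 3) and 253 TPM in the fresh sample. Claudins seal the gap between cells. Cldn7 was at 483, 519 and 554 TPM in the organoids and listed at 0 in the fresh sample, Cldn2, which forms a pore for cations, at 108, 119 and 125 TPM and 0, and Cldn3 at 113, 129 and 136 TPM and 0.212 TPM. The scaffold Tjp3 was at 82.2, 81.4 and 83.7 TPM and 0.123 TPM. All 4 genes were high in each organoid sample and under 1 TPM in the fresh sample. Jam3 lay the other way, at 0.0227, 0.09403 and 0.0286 TPM in the organoids and 48.4 TPM in the fresh sample. The scaffold Tjp1 and the membrane protein F11r were in both. Tjp1 was at 32.4, 36.6 and 38.04 TPM in the organoids and 47.9 TPM in the fresh sample, and F11r at 54.6, 55.1 and 57.5 TPM and 49.1 TPM, but at 1.22 TPM in the immortalised sample.

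Promoters of the junction genes were searched for the E-box CACCTG, or CAGGTG on the other strand, which Snail and Zeb repressors are known to bind upstream of E-cadherin. The windows, from 250 bases before to 50 after a gene's start, come from RefSeq (build GRCm38.p6). Of 28 junction genes on the epithelial side (cadherin, tight junction and desmosome families), 17 had an entry and 12 of these held the motif. Of 13 junction genes on the mesenchymal side, 5 had an entry and 4 held it, and of 23 on neither side, 16 had an entry and 7 held it. The motif was in 20.2% of all 32851 promoters of this length. Counted by gene, as the junction genes were, it was in 22.6% of 27025 genes and in 21.3% of 10817 genes above the filter. It was in 41.2% of 866 epithelial-side genes with an entry and in 19.0% of 1471 mesenchymal-side genes with an entry. A match is a description of letters, not a site. Cdh1 is among the genes without an entry. The 250 bases before the start are printed for 4 of the 12 epithelial genes, chosen after the motifs were counted, because they hold from 2 to 4 copies there. Capitals mark the motif.
Epcam, chr17:87635729-87635978, plus strand: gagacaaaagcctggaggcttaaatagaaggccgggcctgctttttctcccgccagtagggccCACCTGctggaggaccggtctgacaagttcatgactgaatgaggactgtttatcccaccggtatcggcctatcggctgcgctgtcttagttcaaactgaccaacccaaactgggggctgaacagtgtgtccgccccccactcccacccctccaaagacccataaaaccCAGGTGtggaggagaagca
Cldn7, chr11:69965171-69965420, plus strand: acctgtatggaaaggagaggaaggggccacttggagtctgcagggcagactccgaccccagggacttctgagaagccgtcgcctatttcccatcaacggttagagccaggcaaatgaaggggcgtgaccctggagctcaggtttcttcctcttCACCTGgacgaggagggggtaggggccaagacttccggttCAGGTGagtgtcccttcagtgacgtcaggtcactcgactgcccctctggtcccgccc
Crb3, chr17:57061951-57062200, plus strand: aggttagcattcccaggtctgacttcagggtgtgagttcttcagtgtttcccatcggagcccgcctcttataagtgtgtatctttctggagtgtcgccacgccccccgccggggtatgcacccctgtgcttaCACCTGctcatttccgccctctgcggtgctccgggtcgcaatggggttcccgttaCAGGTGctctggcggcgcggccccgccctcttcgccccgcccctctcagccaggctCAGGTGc
Lsr, chr7:30973470-30973719, minus strand: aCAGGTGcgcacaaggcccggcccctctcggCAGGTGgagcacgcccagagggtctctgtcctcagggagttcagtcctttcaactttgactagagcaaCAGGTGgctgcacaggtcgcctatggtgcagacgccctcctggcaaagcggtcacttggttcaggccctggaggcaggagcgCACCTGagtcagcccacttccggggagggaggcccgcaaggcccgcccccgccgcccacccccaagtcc
The first base of the motif lay 187 and 19 bases before the start in Epcam and 97 and 57 bases in Cldn7. It lay 118, 63 and 7 bases before the start in Crb3, a polarity protein of the apical membrane. In Lsr, which builds tight junctions where 3 cells meet, it lay 249, 219, 151 and 69 bases before. Crb3 was at 31.4, 32.8 and 31.9 TPM in the organoids and 0.101 TPM in the fresh sample. Lsr was at 109.9, 124 and 122 TPM and 0.725 TPM. These 4 genes were at 31.4 TPM or more in every organoid sample and under 1 TPM in the fresh sample.

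Desmosomes, which anchor keratin filaments, had 7 of 13 genes on the epithelial side and 1 on the mesenchymal side. Desmoplakin (Dsp) was at 71.3, 81.8 and 84.5 TPM in the organoids and 0.109 TPM in the fresh sample. The desmosomal cadherins Dsg2 and Dsc2 were at 67.7, 79.96 and 84.2 TPM and 63.2, 69.96 and 70.99 TPM in the organoids and at 0.271 and 0.518 TPM in the fresh sample. Both were under 1 TPM in the fresh sample. Jup (plakoglobin), which also sits in adherens junctions, was on neither side at 78.8, 85.2 and 81.00 TPM and 48.5 TPM. Dst, a linker of hemidesmosomes that other cells also use, was the mesenchymal member at 5.58, 7.19 and 9.61 TPM and 82.2 TPM. Connexins, which form gap junctions, were found on both sides. Gjb1 was at 21.1, 22.1 and 22.5 TPM in the organoids and listed at 0 in the fresh sample, and Gjb2 at 19.97, 22.7 and 22.00 TPM and 0.223 TPM. Gja1 (connexin 43) was at 0.0273, 0.0321 and 0 TPM and 26.1 TPM, and Gjc1 (connexin 45) at 0 in each of the organoids and at 26.5 TPM in the fresh sample. Of 8 connexin and pannexin genes above the filter, 3 lay on each side.

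**Figure D3:**
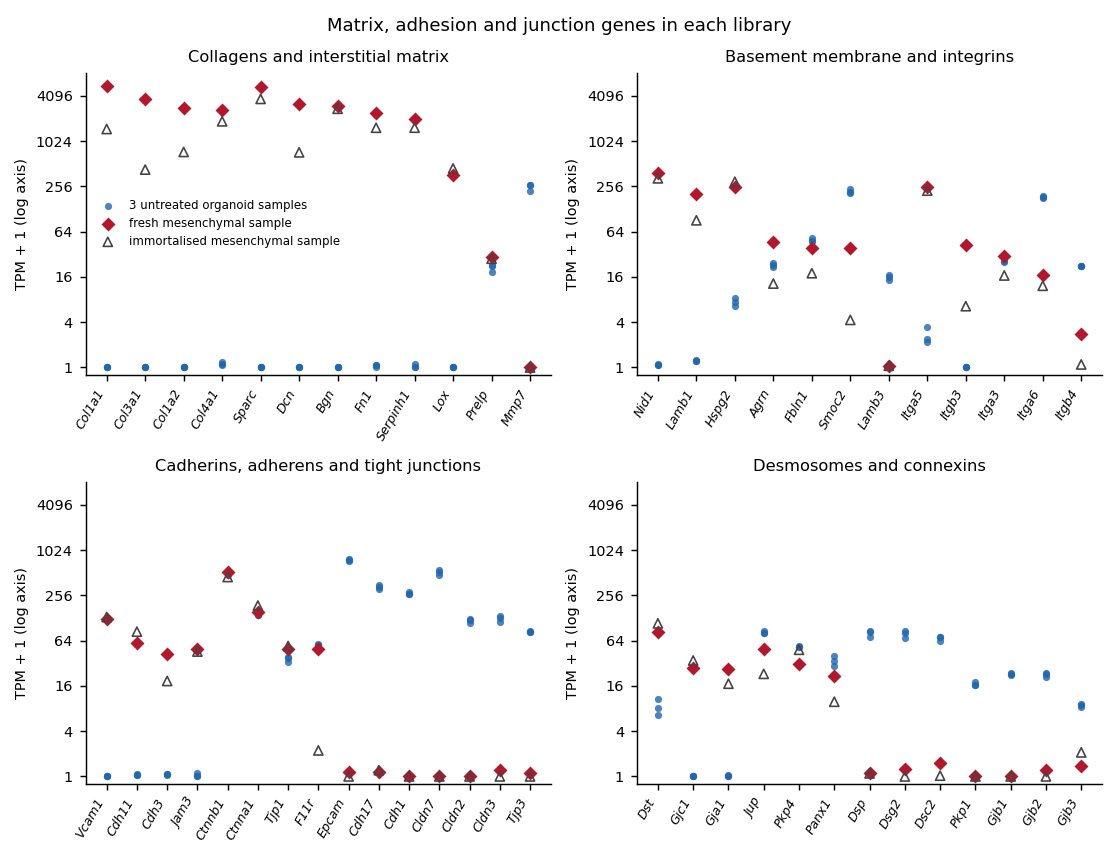
TPM + 1 on a log axis for named matrix, integrin and junction genes in the 3 untreated organoid samples (circles), the fresh mesenchymal sample (diamonds) and the immortalised mesenchymal sample (triangles). Col1a1 and its neighbours are above 1000 TPM in the fresh sample and at the floor in the organoids, the claudins and desmosomal genes show the opposite, and Ctnnb1, Ctnna1 and Tjp1 have much the same level in both.

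Transcription factors and splicing factors that set an epithelial or mesenchymal state were listed alongside, and 30 of 32 passed the filter. The mesenchymal side held 13 and the epithelial side 14. Hnf4a, an enterocyte regulator, was at 303, 334 and 306 TPM in the organoids and listed at 0 in the fresh sample, as was Elf3 at 169, 160.3 and 203 TPM and Cdx1 at 84.5, 91.4 and 85.8 TPM. On the other side, the gut mesenchyme factors Foxf1 and Nkx2-3 were at 0 in every organoid sample and at 67.7 and 86.9 TPM in the fresh sample. The 3 E-box repressors Zeb1, Snai1 and Snai2 are named after their values were seen, and Zeb2 by rule. Zeb2 was at 0, 0 and 0.00951 TPM in the organoids and 58.5 TPM in the fresh sample, and Zeb1 at 0.00693, 0.0414 and 0.0574 TPM and 32.02 TPM. Snai2 was at 0.413, 0.434 and 0.246 TPM and 31.3 TPM, and Snai1 at 0.0281, 0.06598 and 0.0353 TPM and 16.1 TPM. All 4 were under 1 TPM in each organoid sample. Foxl1, a marker of mesenchymal cells next to the epithelium, was at 0.0218 TPM in the fresh sample and below the filter.

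The other untreated organoids showed how far the low organoid values hold outside the 3 samples. Whole reads could be recovered from the BMP table's normalized counts, about 21700000 to 24800000 per sample. All 57 epithelial-side members were seen there with at least 100 reads in each of the 4 samples, the lowest being Sfrp5 with 167. The rule had already required these 57 to be well above the fresh sample in each of the 3 organoid samples. Their detection in other organoids therefore adds little. Of the 208 mesenchymal-side members, 189 had a row there. In 66 of the 189 no sample held more than 3 reads, and in 14 of these all 4 samples held 0. At the other end, 75 held at least 10 reads in each sample and 34 at least 100, so a place on the mesenchymal side does not mean that organoids lacked the transcript. These counts are of members only. The shares over all genes of each side were not counted, so none is a result particular to the members. Fgf10, Eng and Col3a1 were at 0 reads in all 4, which allows up to 3 reads a sample, for counting error only. Bmp4, Grem1, Rspo3 and Nrg1 did not pass 2 reads in any of the 4. Inhba held 1 to 11 reads, Fgfr1 4 to 12 and Tgfb1 57 to 110. Col4a1 held 58 to 276 reads, Fstl1 162 to 349 and Egfr 1416 to 1700.

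The immortalised sample was set against the same 3 organoid samples, so the 2 comparisons share their controls and are given side by side only. Among the 392 members that passed the filter, 165 lay on the mesenchymal side with the immortalised sample and 58 on the epithelial side, beside 208 and 57 with the fresh one. That filter used the fresh sample and the organoids. Members that reached it only in the immortalised sample were left out, while those that reached it only in the fresh sample were counted. Cdh1, Cldn7 and Epcam were at 0 in the immortalised sample. Grem1 was at 2621 TPM there and 1016 TPM in the fresh sample, and Csf1 at 623 and 181 TPM. Fgf10 was at 110.5 and 66.98 TPM. These 3 secreted factors were higher in the immortalised sample. Others were lower. Bmp4 was at 54.95 TPM in the immortalised sample and 151 TPM in the fresh sample, Rspo3 at 19.9 and 44.7 TPM, and Igf1 at 6.41 and 72.3 TPM. Rspo1 was listed at 0 in the immortalised sample, against 13.8 TPM in the fresh sample, and Dkk2 was at 0.924 against 33.3 TPM. Wnt ligands and R-spondins on the mesenchymal side numbered 2 with the immortalised sample and 7 with the fresh one. Summed collagens were at 7353 TPM in the immortalised sample and 18958 TPM in the fresh sample. With 1 sample each, none of these differences has a replicate check.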

How the data were processed

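RNA-seq gene values were taken from 3 deposited tables covering 28 samples. Per the labels' protocols, mRNA libraries (KAPA HyperPrep) were read on a NextSeq 500, 75 bases from one end, in runs not assigned to samples. Salmon, Trim Galore, DESeq2 and GRCm39 are named, with no role given, in the submitters' processing notes. The Tgfb and mesenchymal tables hold TPM per Ensembl gene as deposited, summing to 1000000 in each sample. The BMP table holds coverage-like normalized counts that the authors divided by a size factor per sample. Whole reads were recovered there in 100% of low values (up to 20 reads, within 2%), 1 read being worth 0.826 to 0.888. No column of per-sample values was left unmapped (0).

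Tables were joined by Ensembl ID. Sides used log2(TPM + 1), a pseudocount of 1, a limit of 4-fold and a filter of 1 TPM, in Python 3.11.15 with numpy 2.4.6, pandas 2.3.3 and matplotlib 3.10.9. The rule was also run on simulated data, with large changes planted in well-expressed genes only. That run checks the code and says nothing about low values, values near the limit or tables made separately. Nothing was tested with 1 mesenchymal sample. Of 559 listed symbols, 556 were found. Mucdhl, Tiki2 and Pros1 were not analysed here, values of 1 matrix gene that is counted are not reported here, and for Nrg1, with 2 IDs, the higher was used. Genes named per family are the 4 with the largest difference on each side and the 2 on neither side with the highest lower level, plus the members of the 64 pairs, the markers and the 10 highest genes of each side. The genes and lists were chosen with earlier results of these data known.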

Additional observations from a re-analysis of the deposited data

Results flagged for a closer look

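Among the 4 untreated organoid samples of the BMP table, 3 members had 1 sample apart from the others by Dixon's ratio, the gap to the nearest sample divided by the whole range, whose critical value is 0.829. Chance flags about 1 in 20 such groups. Bmp4 was at 0, 0, 0 and 0.83 normalized counts, a ratio of 1 that rests on a single read. Rspo3 was at 0, 0, 0 and 0.887 normalized counts, also a ratio of 1 from a single read. Ccn2, a matricellular gene that lay on the mesenchymal side, was at 109, 130, 165 and 437 normalized counts, a ratio of 0.829268.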

How the results depend on the processing

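With 1 mesenchymal sample and tables scaled separately, every side is a difference in size without a test, and TPM keep no depth. No paired analysis was possible because the mesenchymal group has 1 sample and no value comes from a test. No result reversed, and none of the 292 members on a side (transcription regulators included) changed to the other side under any alternative. All 292 stayed on their side with median-ratio scaling. They also did with a pseudocount of 0.1, with 2-fold, with no filter, with the organoid mean and without any 1 organoid sample. Those settings only loosen the rule, so no member could lose its side under them and they are no check of it. Fewer did with at least 5 TPM (270), quantile normalization (273), mitochondrial and ribosomal protein genes left out (289), the immortalised sample (235), a pseudocount of 5 (203) and 10-fold (202).

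All counts in this paragraph are of genes on the mesenchymal side or genes on the epithelial side. With a pseudocount of 5, the mesenchymal side held 1064 genes, 17 ligands, 15 receptors and 11 antagonists, and the epithelial side 615 genes, 1 ligand, 4 receptors and 2 matrix genes. With 10-fold these were 992 genes, 18 ligands, 12 receptors, 10 antagonists and 17 adhesion genes, and 632 genes, 1 ligand, 2 receptors, 1 antagonist and 2 matrix genes. With 2-fold, 4072 genes were mesenchymal and 2262 epithelial, with 13 epithelial receptors. Leaving out 1 organoid sample gave 2163 to 2189 mesenchymal genes and 1224 to 1251 epithelial genes. For members those ranges were 31 ligands, 28 receptors, 17 to 18 antagonists, 106 to 107 matrix and 26 adhesion genes on the mesenchymal side. On the epithelial side they were 9 to 10 ligands, 7 to 8 receptors, 3 antagonists, 4 matrix and 34 adhesion genes. The 15 pairs from a mesenchymal ligand to an epithelial or shared receptor became 16 with 2-fold, 14 with 10-fold and 13 with the immortalised sample. These were not all the same pairs. The 10-fold limit removed Wnt2b with Fzd5, Wnt4 with Fzd6, Nrg1 with Erbb3, Fgf7 with Fgfr2 and Hgf with Met. It brought in Tgfb2 and Tgfb3 with Tgfbr2, Ereg with Egfr and Igf1 with Igf1r, whose receptors had left the mesenchymal side. The immortalised sample removed the pairs of Rspo1, Wnt4 and Hgf and Wnt2b with Fzd5. It brought in Tgfb1, Tgfb2 and Tgfb3 with Tgfbr2.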

Other observations

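Outside the member lists, the highest transcript of the mesenchymal side was Bc1, a short non-coding RNA best known from neurons. It was at 550.0, 690.6 and 691 TPM in the organoids, 73641 TPM in the fresh sample and 30374 TPM in the immortalised one. That is 7.36% of all TPM of the fresh sample, which lowers every other gene's share there. The next highest were Col1a1, Sparc, Acta2 and Col3a1, and the actin-binding genes Tagln at 3011 TPM and Tpm1 at 2871 TPM were in the same top 10. On the epithelial side the highest were the Paneth cell defensins Defa24, at 8841, 10869 and 9181 TPM in the organoids and listed at 0 in the fresh sample, and Defa3. Defensin genes are near-identical copies, so reads may be divided between them and single values are uncertain. Fabp1, a fatty acid carrier of enterocytes, was at 2891, 2560 and 3780 TPM in the organoids, and Olfm4, a crypt stem cell gene, at 2416, 2589 and 2152 TPM, and both were at 0 in the fresh sample.

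Mesothelial genes stood out between the mesenchymal samples. Upk3b was at 58.2 TPM in the fresh sample and 0.141 TPM in the immortalised one, Wt1 at 27.1 and 0.0531 TPM, and Msln at 35.1 and 0.0861 TPM. The smooth muscle gene Des was at 197 and 1.13 TPM, while Acta2 was at 5112 and 7499 TPM. Mitochondrially encoded genes took 19.5%, 12.4% and 10.9% of TPM in organoid samples 1, 2 and 3, 7.44% in the fresh sample and 8.47% in the immortalised one.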
